A study of Mus musculus with 10 samples.

Results

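The genes described here are 9 chemokines found in liver, Ccl2, Ccl5, Ccl6, Ccl9, Cxcl1, Cxcl9, Cxcl10, Cxcl12 and Cxcl16, and the macrophage growth factor gene Csf1. They were chosen by name, and each symbol matched 1 row, so that 10 of the 53392 genes in the deposited table are members. RNA of whole frozen liver was measured in 10 samples from mice of the C57BL/6 strain at 24 weeks of age, of which 5 were labelled Fbp1-deleted (replicates 6 to 10) and 5 wild type (WT, replicates 1 to 5). Per the labels, the deletion is of hepatic Fbp1, the gene of the gluconeogenic enzyme fructose bisphosphatase. The sources used here do not give the promoter that drives the deletion, the sex of the mice, their feeding state or any floxed allele in WT mice.

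Chemokines are small secreted proteins that guide leukocytes by binding receptors of the G protein-coupled class. They are named after the spacing of their first cysteines, adjacent in the CC family and parted by another residue in the CXC family. In liver they come from hepatocytes, Kupffer cells (the resident macrophages), sinusoidal endothelium and stellate cells. Interferon gamma induces Cxcl9 and Cxcl10, the transcription factor NF-kappaB drives Cxcl1 and Ccl2, and Cxcl12 is produced without such a stimulus. CSF1 is not a chemokine but sustains Kupffer cells through its receptor CSF1R.

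Levels are given as CPM, the count divided by the scaled library size and expressed on a common total, for replicates 6 to 10 of Fbp1-deleted and replicates 1 to 5 of WT in that order. Changes are log2 of Fbp1-deleted over WT with a standard error (SE) from the fit, and the adjusted p is that of edgeR's quasi-likelihood test over all 15392 genes tested. Fbp1 itself was at 7.38 to 13.4 CPM in Fbp1-deleted livers and at 778 to 1050 CPM in WT livers. The libraries held 17778395 to 23894812 estimated counts, so that 1 count was worth 0.0409 to 0.0607 CPM. On the first principal component, which held 42.6% of the variance, Fbp1-deleted replicate 8 lay nearest to the WT livers, at 6.12 against 30.4 to 46.5 in the other 4 Fbp1-deleted livers and -40.7 to -14.9 in WT.

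Of the 10 genes, 7 fell in Fbp1-deleted liver, namely Cxcl1, Ccl9, Cxcl10, Ccl5, Cxcl9, Csf1 and Cxcl12, and 0 rose. Of all genes tested, 10% fell and 10.6% rose by the same rule, 20.6% in all. The split of these calls, 1636 higher and 1542 lower, turned to 1266 higher and 1878 lower with upper quartile scaling and to 1190 higher and 1965 lower with library totals. The changes of the 7 genes ranged from -2.85 to -0.56, with adjusted p between 0.000538 and 0.0268. Ccl6 and Cxcl16 were tested and did not pass, and Ccl2 was too low for the test. The median change over the 9 genes tested was -0.99, against 0.01 over all genes tested. The groups did not overlap for 5 of the 10 genes (Ccl5, Ccl9, Cxcl9, Cxcl10 and Cxcl12), all lower in Fbp1-deleted liver, where 6.89% of all genes tested were lower and 6.57% higher without overlap. At an unadjusted p under 0.05 the same 7 genes passed, again with 0 higher, where 34.6% of all genes passed in either direction. DESeq2 also called these 7 lower and 0 higher. These are bulk samples, so fewer cells of a type and less RNA per cell cannot be told apart.

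**Figure D1:**
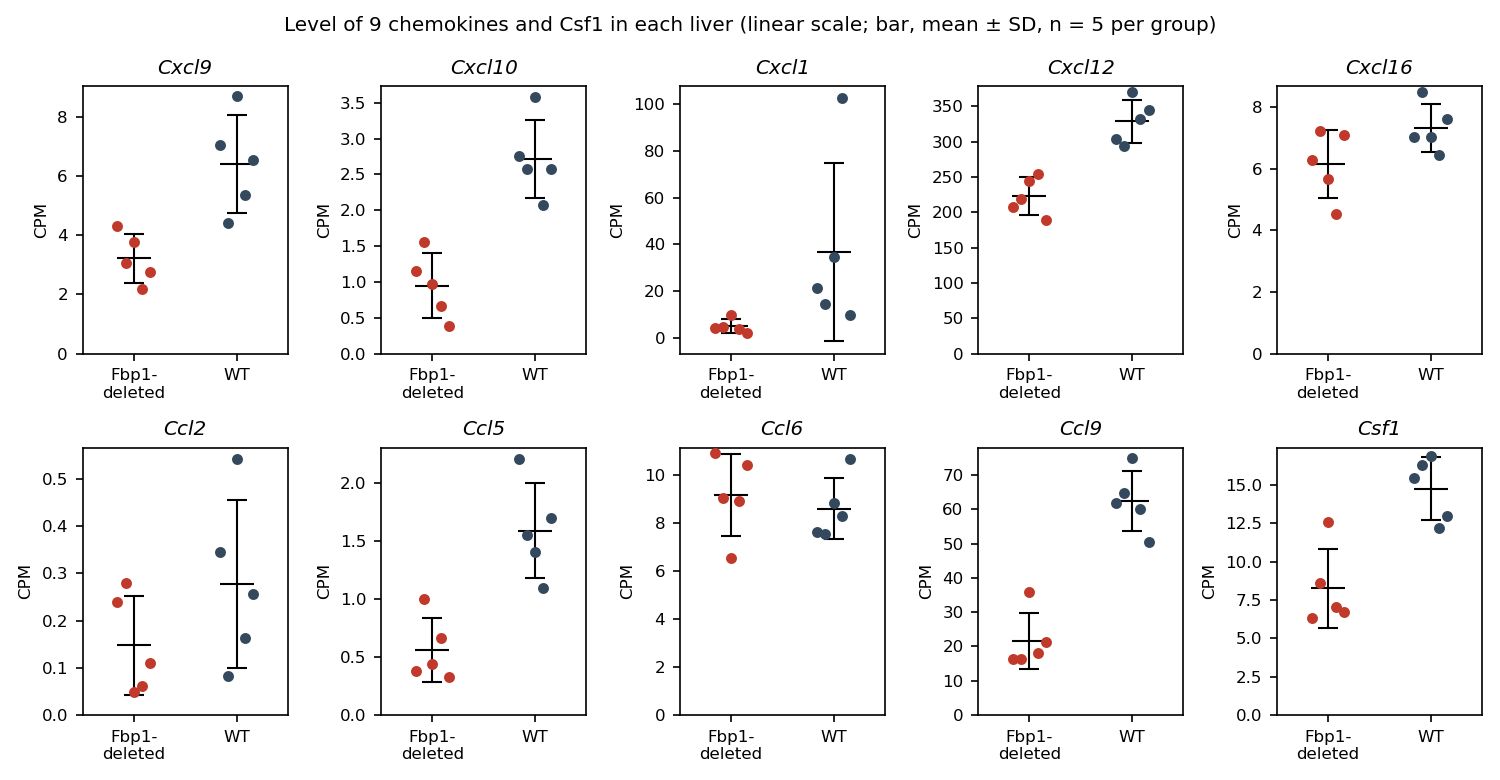
CPM of the 10 genes in each liver on linear axes, Fbp1-deleted left of WT; each point is 1 liver and the bars are mean ± SD over 5 livers. The points of Ccl5, Ccl9, Cxcl9, Cxcl10 and Cxcl12 do not overlap between groups, and 1 WT liver stands at 102 CPM for Cxcl1.

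Levels were compared between genes after division by transcript length. Per kilobase of coding transcript, Cxcl12 was highest, at 71.1 ± 8.50 CPM in Fbp1-deleted and 105 ± 9.82 CPM in WT liver (SD, n = 5 each), and Ccl2 lowest, at 0.181 ± 0.130 and 0.342 ± 0.218 CPM. In Fbp1-deleted liver Ccl9 (7.17), Ccl6 (6.37), Csf1 (5.64) and Cxcl1 (5.26 CPM per kilobase) came next, and the ranges of neighbours in that order overlapped. WT livers had the order Cxcl1 (38.4), Ccl9 (20.8), Csf1 (10.1) and Ccl6 (5.96 CPM per kilobase) below Cxcl12, where only Cxcl1 overlapped its neighbours. Cxcl16, Cxcl9, Ccl5 and Cxcl10 lay between 0.774 and 2.29 CPM per kilobase in Fbp1-deleted and between 2.22 and 2.99 in WT liver. These lengths are medians of annotated transcripts, so the order is approximate.

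Cxcl9 and Cxcl10, ligands of the receptor CXCR3 on activated T cells and natural killer cells, both fell. Cxcl10 (ENSMUSG00000034855.13, chromosome 5, 92346638 to 92348889, minus strand, GRCm38) was at 1.15, 1.56, 0.970, 0.668 and 0.386 CPM in Fbp1-deleted livers, against 2.76, 2.57, 3.57, 2.08 and 2.57 CPM in WT livers. Each Fbp1-deleted liver lay below each WT liver, and the change was -1.51 (SE 0.33, adjusted p = 0.00597), or 2.84-fold lower. Cxcl9 (ENSMUSG00000029417.9, chromosome 5, 92321347 to 92328079, minus strand) was at 4.31, 3.06, 3.78, 2.18 and 2.76 CPM in Fbp1-deleted livers, against 7.04, 4.41, 8.72, 5.35 and 6.53 CPM in WT livers. The groups parted only narrowly here, with a change of -0.99 (SE 0.22, adjusted p = 0.00799), or 1.98-fold lower. Cxcl11, which encodes a further CXCR3 ligand in other strains, is annotated as a polymorphic pseudogene, and its C57BL/6 allele is known to make no functional chemokine. It is not one of the 10 genes. It was at 2.30, 2.06, 2.04, 1.21 and 1.27 CPM in Fbp1-deleted livers, against 7.58, 6.09, 3.36, 2.57 and 5.25 CPM in WT livers, a change of -1.48 (SE 0.30, adjusted p = 0.00437). The ratio of Cxcl9 to Cxcl10 within a liver was 1.96 to 7.14 in Fbp1-deleted and 1.71 to 2.58 in WT livers, a difference that did not pass (0.65 on the log2 scale, p = 0.0635, exact 2-sided permutation test). An exon of Cxcl10 overlaps one of Art3 on the other strand, and 4.47% of its 31-base words also occur in Art3, which averaged 1.57 ± 0.279 CPM in Fbp1-deleted and 1.81 ± 0.577 CPM in WT liver (SD, n = 5 each; change -0.20, adjusted p = 0.644).

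The 250 bases before the start of Cxcl10 and Cxcl9 are shown because both genes fell and both windows hold letters of the kappaB motif, to which NF-kappaB binds. Capitals mark matches on either strand to GGGNNTTCC or to GGG and TTCC parted by any 3 bases (the short and long kappaB forms, which can overlap), to GAAA, any 2 bases and GAAA (bound by interferon regulatory factors) and to TGAGTCA (bound by AP-1). The sequences are from RefSeq, GRCm38.p6, read 5′ to 3′ on the minus strand at chr5:92348890-92349139 for Cxcl10 and chr5:92328080-92328329 for Cxcl9.
Cxcl10: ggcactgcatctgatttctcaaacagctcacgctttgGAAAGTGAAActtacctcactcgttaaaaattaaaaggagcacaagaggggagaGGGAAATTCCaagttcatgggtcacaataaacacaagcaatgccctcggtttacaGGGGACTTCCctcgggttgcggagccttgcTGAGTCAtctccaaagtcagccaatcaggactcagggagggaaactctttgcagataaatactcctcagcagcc
Cxcl9: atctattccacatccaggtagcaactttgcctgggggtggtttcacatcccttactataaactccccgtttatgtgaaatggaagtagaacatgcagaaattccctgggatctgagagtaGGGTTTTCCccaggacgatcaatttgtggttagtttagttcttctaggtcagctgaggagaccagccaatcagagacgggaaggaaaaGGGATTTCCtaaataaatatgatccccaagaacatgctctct

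In Cxcl10 the capitals are, from left to right, an interferon regulatory factor match, a long kappaB match, overlapping long and short kappaB matches and an AP-1 match. Cxcl9 has a pair of short kappaB matches. Over the same window of 32851 promoters, 4.98% hold the short and 4.65% the long kappaB form, 2.98% the interferon regulatory factor motif and 4.46% TGAGTCA. Promoters of 7 of the 10 genes were in the table. Of these, 3 hold the short form (Ccl9, Cxcl9 and Cxcl10) and 4 the long form (Ccl9, Csf1, Cxcl1 and Cxcl10). Cxcl12, which fell, and Ccl6, which did not pass, hold no match to the motifs searched. Since all of these 7 genes but Ccl6 fell, the matches cannot be compared between genes that fell and genes that did not. A link between the matches and the falls was not tested.

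Cxcl1, whose product attracts neutrophils through CXCR2, had the largest fitted fall of the 10 genes and the widest spread. Cxcl1 (ENSMUSG00000029380.11, chromosome 5, 90891241 to 90893115, plus strand) was at 4.31, 4.62, 10.04, 4.01 and 2.09 CPM in Fbp1-deleted livers, against 21.5, 14.7, 34.7, 102 and 9.72 CPM in WT livers. Fbp1-deleted replicate 8 overlapped the lowest WT liver, and WT replicate 4 stood far above the rest. The change was -2.85 (SE 0.74, adjusted p = 0.0268), or 7.23-fold lower. Without WT replicate 4 it was -1.99 (adjusted p = 0.0209). The call was lost without any of Fbp1-deleted replicates 6, 7, 9 and 10 (adjusted p between 0.0562 and 0.0716), without the filter on low counts (0.0576) and with limma-voom (0.0621). Among further ligands of CXCR2, Ppbp rose and Cxcl5 was called higher without the filter on low counts, while Cxcl2 and Cxcl3 were too low to test, with 15 and 7 counts over the Fbp1-deleted livers and 23 and 9 over the WT livers. The promoter of Cxcl1 (plus strand, chr5:90890995-90891244) is shown for its kappaB matches, of which the second run in capitals reads as a match on both strands.
Cxcl1: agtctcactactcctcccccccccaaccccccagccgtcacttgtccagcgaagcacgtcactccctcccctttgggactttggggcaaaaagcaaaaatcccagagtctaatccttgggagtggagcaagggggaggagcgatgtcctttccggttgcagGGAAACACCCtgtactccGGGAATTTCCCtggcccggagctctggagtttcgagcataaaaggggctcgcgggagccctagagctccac

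Cxcl12, which holds CXCR4-bearing cells in place, had the highest level per kilobase of the 10 genes and, of the 7 that fell, the smallest fold. Cxcl12 (ENSMUSG00000061353.11, chromosome 6, 117168535 to 117181367, plus strand) was at 208, 218, 244, 254 and 189 CPM in Fbp1-deleted livers, against 304, 294, 369.6, 332 and 345 CPM in WT livers. The groups did not overlap, and both were tight about their means of 223 ± 26.6 CPM in Fbp1-deleted and 329 ± 30.8 CPM in WT liver (SD, n = 5 each). The change was -0.56 (SE 0.11, adjusted p = 0.00309), or 1.48-fold lower.

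Cxcl16, made as a membrane-bound ligand of CXCR6 and released by ADAM10 and ADAM17, did not pass the test. Cxcl16 (ENSMUSG00000018920.11, chromosome 11, 70453983 to 70459984, minus strand) was at 6.27, 7.24, 5.67, 4.55 and 7.11 CPM in Fbp1-deleted livers, against 7.04, 8.50, 7.04, 6.45 and 7.61 CPM in WT livers. The groups overlapped between 6.45 and 7.24 CPM, and the change of -0.25 (SE 0.15, adjusted p = 0.281) had a 95% interval from -0.60 to 0.11. Exons of Cxcl16 and Zmynd15 overlap on opposite strands and 18.5% of the 31-base words of Cxcl16 also occur in Zmynd15. Since the library does not keep the strand, counts of the pair are uncertain. Zmynd15 averaged 4.56 ± 1.08 CPM in Fbp1-deleted and 5.57 ± 1.80 CPM in WT liver (SD, n = 5 each, adjusted p = 0.420).

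Ccl9 and Ccl6, neighbouring genes of mouse chromosome 11 whose products both bind CCR1, had different results. Ccl9 (ENSMUSG00000019122.8, 83572919 to 83578636, minus strand) was at 16.4, 16.3, 35.8, 18.1 and 21.2 CPM in Fbp1-deleted livers, against 61.7, 64.9, 75.0, 60.2 and 50.5 CPM in WT livers. Each Fbp1-deleted liver lay below each WT liver, with replicate 8 nearest to WT, and the change was -1.53 (SE 0.21, adjusted p = 0.000538), or 2.89-fold lower. Ccl6 (ENSMUSG00000018927.3, 83587882 to 83593087, minus strand) was at 10.9, 9.03, 6.55, 8.92 and 10.4 CPM in Fbp1-deleted livers, against 7.63, 7.52, 8.83, 8.30 and 10.6 CPM in WT livers. Its groups overlapped over most of their range, and the change of 0.10 (SE 0.16, adjusted p = 0.706) had a 95% interval from -0.27 to 0.46. The ratio of Ccl9 to Ccl6 within a liver was 1.504 to 5.47 in Fbp1-deleted and 4.74 to 8.63 in WT livers. That ratio was lower in Fbp1-deleted liver by a log2 difference of -1.68 (p = 0.0159, exact 2-sided permutation test, 0.0238 adjusted over 3 ratios). The 3 ratios were picked after their values were seen. None of the 31-base words of either gene occurs in the other.

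The windows before Ccl9 (chr11:83578637-83578886) and Ccl6 (chr11:83593088-83593337), both read on the minus strand, are shown because the neighbours had different results. Ccl9 has a kappaB match on the opposite strand, with both forms overlapping, and Ccl6 has no match to the motifs searched.
Ccl9: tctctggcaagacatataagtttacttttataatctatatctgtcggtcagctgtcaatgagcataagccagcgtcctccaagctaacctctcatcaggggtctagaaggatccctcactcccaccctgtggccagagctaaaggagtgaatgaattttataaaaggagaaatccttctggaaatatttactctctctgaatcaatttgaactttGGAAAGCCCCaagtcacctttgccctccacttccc
Ccl6: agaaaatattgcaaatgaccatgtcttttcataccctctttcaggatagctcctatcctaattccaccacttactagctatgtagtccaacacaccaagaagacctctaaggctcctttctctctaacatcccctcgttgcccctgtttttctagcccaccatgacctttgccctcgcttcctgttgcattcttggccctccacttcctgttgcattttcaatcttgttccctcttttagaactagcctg

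Ccl5, which attracts T cells and monocytes through receptors that include CCR1, fell, and Ccl2, which draws monocytes through CCR2, was near the limit of detection. Ccl5 (ENSMUSG00000035042.2, chromosome 11, 83525778 to 83530518, minus strand) was at 0.383, 1.003, 0.436, 0.668 and 0.331 CPM in Fbp1-deleted livers, against 2.21, 1.55, 1.41, 1.09 and 1.70 CPM in WT livers. The groups did not overlap, and the change was -1.50 (SE 0.35, adjusted p = 0.00968), or 2.83-fold lower. This rests on 52 counts over the 5 Fbp1-deleted livers and 162 over the 5 WT livers. Ccl2 (ENSMUSG00000035385.5, chromosome 11, 82035571 to 82037453, plus strand) had 5, 5, 1, 1 and 2 counts in Fbp1-deleted livers, against 7, 2, 10, 3 and 5 counts in WT livers. The groups overlapped, at 0.147 ± 0.105 CPM in Fbp1-deleted and 0.278 ± 0.177 CPM in WT liver (SD, n = 5 each, p = 0.198, exact 2-sided permutation test, which cannot go below 0.00794 here). A difference in Ccl2 was not detectable at this depth.

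Csf1 fell, and so did its receptor gene Csf1r, while Il34, which encodes the second ligand of that receptor, did not pass. Csf1 (ENSMUSG00000014599.10, chromosome 3, 107741048 to 107760469, minus strand) was at 6.32, 8.64, 12.6, 7.04 and 6.72 CPM in Fbp1-deleted livers, against 15.4, 16.3, 16.9, 12.2 and 13.0 CPM in WT livers. Only Fbp1-deleted replicate 8 reached above the lowest WT liver, and the change was -0.84 (SE 0.19, adjusted p = 0.00694), or 1.79-fold lower. Csf1r, an exon of which overlaps Hmgxb3, was at 36.6, 28.5, 43.8, 28.0 and 41.3 CPM in Fbp1-deleted livers, against 45.1, 55.5, 57.5, 43.5 and 48.5 CPM in WT livers, with replicate 8 again overlapping WT. Its change of -0.49 (SE 0.14, adjusted p = 0.0250) lost the call without WT replicates 2 and 3 and Fbp1-deleted replicates 6, 7 and 9, each left out in turn (adjusted p up to 0.0686). Il34 averaged 4.36 ± 1.05 CPM in Fbp1-deleted and 3.95 ± 1.29 CPM in WT liver (SD, n = 5 each), a change of 0.15 (SE 0.23, adjusted p = 0.684, 95% interval -0.38 to 0.67). The ratio of Csf1 to Il34 within a liver was 1.43 to 2.42 in Fbp1-deleted livers and 2.71 to 4.71 in WT livers. The groups did not overlap (-1.04 on the log2 scale, p = 0.00794, exact 2-sided permutation test, the smallest it can give, 0.0238 adjusted over the 3 ratios). This ratio was picked after its values were seen, so the test adds no support beyond the changes of Csf1 and Il34. Of 7 other genes of colony-stimulating factors and their receptors, 5 were tested and Csf1r was the one that passed (20% lower, against 10% of all genes).

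**Figure D2:**
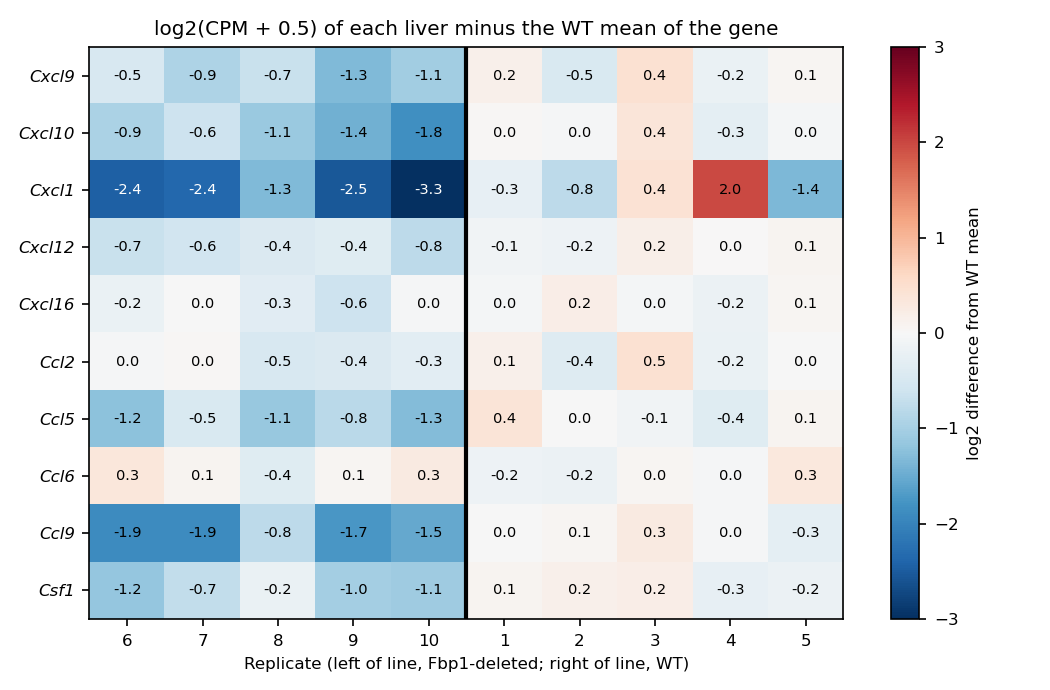
Difference of log2(CPM + 0.5) in each liver from the WT mean of that gene, for the 10 genes (rows) in replicates 6 to 10 of Fbp1-deleted (left of the line) and 1 to 5 of WT (right). Ccl9 and Cxcl1 are lower in Fbp1-deleted replicates 6, 7, 9 and 10 than in replicate 8, and WT replicate 4 stands out for Cxcl1.

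The livers did not share 1 order over the 10 genes. Among Fbp1-deleted livers, replicate 7 was highest for 4 genes (Ccl2, Ccl5, Cxcl10 and Cxcl16) and replicate 8 for 3 (Ccl9, Csf1 and Cxcl1). Replicate 10 was highest for 0 and lowest for 4. Among WT livers, replicate 3 was highest for 6 genes (Ccl2, Ccl9, Csf1, Cxcl9, Cxcl10 and Cxcl12) and lowest for 0. The summed level of the 10 genes was 240.3 to 320.0 CPM in Fbp1-deleted and 414 to 530.0 CPM in WT livers, and most of that sum was Cxcl12.

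The other chemokine ligands were mostly too low to test, and those that passed went both ways. Of 30 further ligands, 10 were tested, with a median change of -0.16. Of these 2 fell (20%, against 10% of all genes) and 1 rose (10%, against 10.6%). Beside Cxcl11, Ccl27a, known chiefly from skin, fell (change -0.76, SE 0.17, adjusted p = 0.00674), at 7.02 ± 1.01 CPM in Fbp1-deleted and 11.9 ± 2.62 CPM in WT liver (SD, n = 5 each). An exon of Ccl27a overlaps Il11ra1, so its counts are uncertain. Ppbp, which encodes a platelet chemokine and ligand of CXCR2, rose. It was at 2.59, 2.12, 1.21, 2.003 and 0.441 CPM in Fbp1-deleted livers, against 0.197, 0.163, 0.433, 0.382 and 0.514 CPM in WT livers, a change of 2.31 (SE 0.48, adjusted p = 0.00471). Fbp1-deleted replicate 10 lay within the WT range. Cxcl5, another ligand of CXCR2, did not pass the filter but did not overlap between groups, with 61 counts over the 5 Fbp1-deleted livers and 13 over the 5 WT livers. Cxcl5 was singled out after its values were seen, and it was called higher when no filter was used (2.33, SE 0.63, adjusted p = 0.0110). Ccl20, Ccl21b and Ccl26 had 0 counts in each library.

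**Figure D3:**
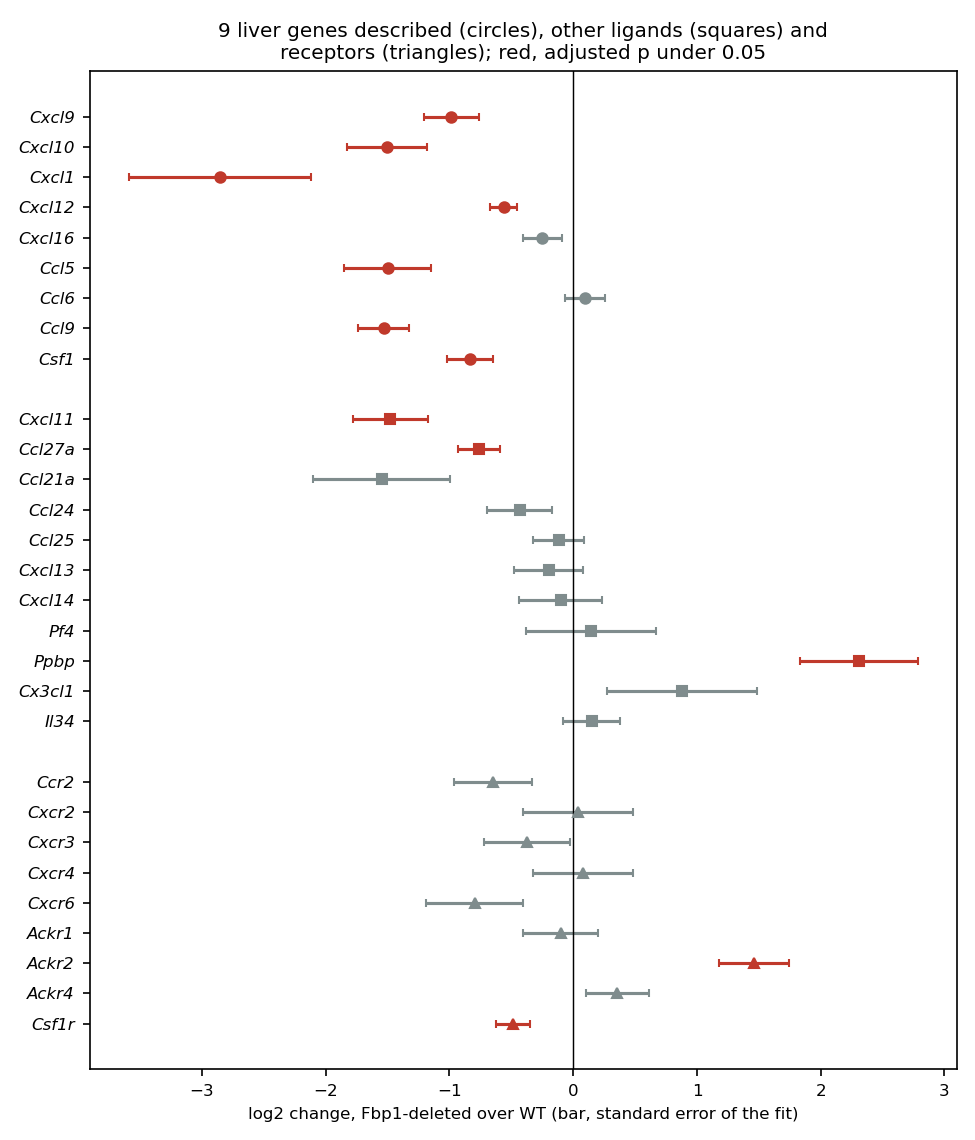
Fitted log2 change of Fbp1-deleted over WT with its standard error for the 9 tested genes of the 10 (circles), other ligands with Il34 (squares) and receptors with Csf1r (triangles), red where the adjusted p is under 0.05. Red circles all lie left of 0, between -2.85 and -0.56, while Ppbp (2.31) and Ackr2 (1.46) lie to the right.

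Among chemokine receptor genes, Ackr2 alone passed the test. Of 23 chemokine receptor genes, 12 were tested, 1 rose (8.33%, against 10.6% of all genes) and 0 fell, also at an unadjusted p under 0.05 and in DESeq2, with a median change of -0.24. The receptor that rose was Ackr2, a decoy receptor that takes up inflammatory CC chemokines. Ackr2 was at 5.08, 4.40, 3.30, 4.19 and 5.62 CPM in Fbp1-deleted livers, against 0.886, 1.27, 2.60, 2.19 and 1.29 CPM in WT livers. The groups did not overlap, and the change was 1.46 (SE 0.28, adjusted p = 0.00311), or 2.75-fold higher. Ccr2, the receptor of CCL2, averaged 0.854 ± 0.127 CPM in Fbp1-deleted and 1.35 ± 0.5004 CPM in WT liver (SD, n = 5 each), with a change of -0.65 (95% interval -1.37 to 0.07, adjusted p = 0.160). Cxcr3, the receptor of CXCL9 and CXCL10, had a change of -0.37 (95% interval -1.18 to 0.43, adjusted p = 0.482). For Cxcr6 it was -0.80 (95% interval -1.70 to 0.11, adjusted p = 0.168). Cxcr2 and Cxcr4 had changes of 0.04 and 0.08 with intervals from -0.98 to 1.06 and from -0.85 to 1.01, and the sign of both turned with upper quartile scaling or library totals. Ackr1, which binds many chemokines on endothelium and red cells, had a change of -0.10 (95% interval -0.80 to 0.59). Ccr1 and Ackr3 were too low to test, with 10 and 61 counts over the Fbp1-deleted livers and 14 and 38 over the WT livers.

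Genes of interferon gamma signalling, which induces Cxcl9 and Cxcl10, fell in part. In the interferon gamma list of 13 genes, 11 were tested, with a median change of -0.26. Of these 4 fell (36.4%, against 10% of all genes) and 1 rose (9.09%, against 10.6%). Irf1, a transcription factor that interferon gamma induces, fell to 12.5 ± 4.71 CPM in Fbp1-deleted liver, against 35.8 ± 3.996 CPM in WT liver (SD, n = 5 each), a change of -1.52 (SE 0.21, adjusted p = 0.000538). Irf9, a subunit of the type I interferon response factor, also fell, with a change of -0.74 (SE 0.09, adjusted p = 0.000183). Cxcl11 and Ciita, the activator of MHC class II genes, were the others that fell. The kinase gene Jak1 rose by 0.35 (SE 0.11, adjusted p = 0.0363), a call lost in 6 of the 10 fits that left out a liver (adjusted p up to 0.0961). The Jak1 call was also lost with upper quartile scaling (adjusted p = 0.0586), library totals (0.0734) and no filter on low counts (0.0764). Ifng itself had at most 1 count in a library. Exons of Irf1, Irf9, Jak1, Ciita and Cxcl11 overlap other annotated genes, so counts of these genes are uncertain.

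In the NF-kappaB list of 22 genes, 19 were tested, 3 fell (15.8%, against 10% of all genes) and 1 rose (5.26%, against 10.6%), with a median change of -0.08. These shares are near those of all genes. Nfkbiz, an inducible cofactor of NF-kappaB, fell by 0.91 (SE 0.15, adjusted p = 0.00148) and Tnfaip3, which encodes the inhibitor A20, by 0.92 (SE 0.19, adjusted p = 0.00429) on the log2 scale. Icam1, the adhesion molecule that leukocytes bind, fell by 0.75 (SE 0.17, adjusted p = 0.00744). Tnfrsf1b, a receptor of tumour necrosis factor, rose to 75.4 ± 15.5 CPM in Fbp1-deleted liver, against 35.7 ± 9.62 CPM in WT liver (SD, n = 5 each), a change of 1.08 (SE 0.19, adjusted p = 0.00201). Nfkb1 (0.05, adjusted p = 0.747), Rela (0.06, adjusted p = 0.745) and the inhibitor gene Nfkbia (0.04, adjusted p = 0.863) did not pass. Among 6 proteases that cut or release chemokines, 5 were tested and 1 rose (20%, against 10.6% of all genes). It was Adam17, which rose by 0.42 (SE 0.12, adjusted p = 0.0252). An exon of Adam17 overlaps Iah1 on the other strand, so its counts are uncertain. The call of Adam17 was lost in 6 of the 10 fits that left out a liver (adjusted p up to 0.0728).

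Some markers of leukocytes fell in the same livers, and their part in the fall of the chemokines was not tested. Of 11 Kupffer cell markers 7 fell and 0 rose, with a median change of -0.48 and a summed level of 254 to 367 CPM in Fbp1-deleted and 342 to 458 CPM in WT livers. The 4 with the smallest p were Folr2 (-0.63), C1qb (-0.47), C1qc (-0.52) and Vsig4 (-0.48). Clec4f, which defines Kupffer cells, did not pass (-0.30, adjusted p = 0.0869). Vsig4 lost its call without Fbp1-deleted replicate 6 or 9 (adjusted p up to 0.0574). The monocyte and macrophage list of 12 had 10 tested, of which Ly6c2 (-1.27) and Lyz2 (-0.88) fell and Cd9 (0.93) rose. The summed level of that list was 87.5 to 127 CPM in Fbp1-deleted and 118 to 154 CPM in WT livers, with means of 102 and 137 CPM. Lyz2 was the largest part of that sum, averaging 42.3 CPM in Fbp1-deleted and 77.8 CPM in WT liver. Of 13 T and natural killer cell markers 9 were tested and Gzma fell (-1.40), with a summed level of 7.72 to 9.63 CPM in Fbp1-deleted and 9.73 to 15.0 CPM in WT livers. Of 7 B cell and plasma cell markers 6 were tested and 3 fell, among them Cd79a (-1.23) and Ighm (-1.84), with a summed level of 7.13 to 13.4 CPM in Fbp1-deleted and 12.0 to 51.5 CPM in WT livers. Zbtb46 (-0.54) fell among 6 of 7 dendritic cell markers tested, at 94.6 to 129 CPM summed in Fbp1-deleted and 133 to 167 CPM in WT livers. Bst2 made up most of that sum, averaging 108 CPM in Fbp1-deleted and 136 CPM in WT liver. The change of Bst2 did not pass (-0.33, adjusted p = 0.0604). Of 8 neutrophil markers 2 were tested and 0 passed, with 1.84 to 6.68 CPM summed in Fbp1-deleted and 4.03 to 10.3 CPM in WT livers. With a liver left out, the call was lost in 7 of 10 fits for Gzma (adjusted p up to 0.105), in 6 for Cd9 (up to 0.0662), in 6 for Ighm (up to 0.0996) and in 4 for Zbtb46 (up to 0.0755), and for each of them without the filter on low counts. Of the markers tested, the shares that fell were 63.6% for Kupffer cells, 50% for B and plasma cells and 20% for monocytes and macrophages. They were 11.1% for T and natural killer cells, 16.7% for dendritic cells and 0% for neutrophils, against 10% of all genes. Of the monocyte and macrophage markers tested 10% rose, against 10.6% of all genes.

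Of 32 tested markers of the other liver cells 4 rose, or 12.5%, against 10.6% of all genes tested, and 0 fell. Sinusoidal endothelium had 9 markers tested, with a median change of -0.25. Lyve1 (0.83) rose, and the other 8 did not pass, with changes between -0.51 and -0.15. Their summed level was 228 to 381 CPM in Fbp1-deleted and 328 to 401 CPM in WT livers. The stellate cell and fibroblast list had 11 tested, of which Dcn (0.42, adjusted p = 0.0491) rose, a call lost in 7 of the 10 fits that left out a liver (adjusted p up to 0.130) and under 5 other settings, at 279 to 357 CPM summed in Fbp1-deleted and 208 to 307 CPM in WT livers. Hepatocyte markers numbered 7, of which Tat (1.67) and Cps1 (0.68) rose, Cps1 losing its call in 5 of those 10 fits (adjusted p up to 0.0541), at 83719 to 95530 CPM summed in Fbp1-deleted and 50938 to 92996 CPM in WT livers. In the cholangiocyte list 5 of 6 were tested and 0 passed, at 12.9 to 22.2 CPM summed in Fbp1-deleted and 16.5 to 29.1 CPM in WT livers. None of the markers listed was at 0 in all libraries.

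**Figure D4:**
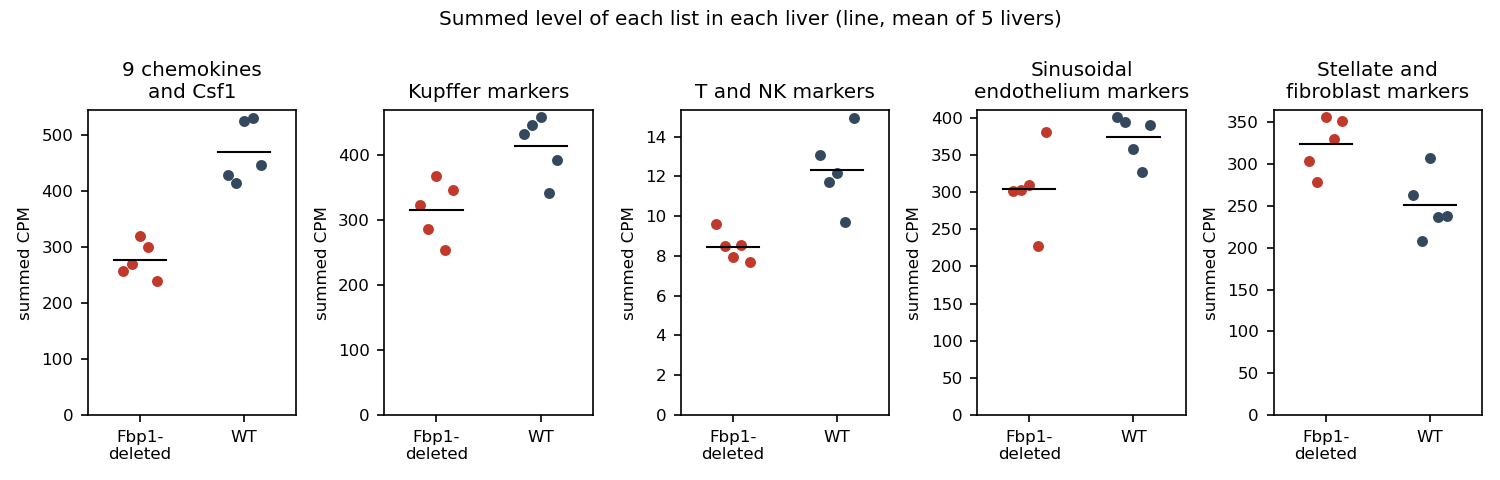
Summed CPM in each liver of the 10 genes and of 4 marker lists, Fbp1-deleted left of WT; points are livers and lines are means of 5. The sums of the 10 genes do not overlap, nor do those of T and natural killer cell markers, those of Kupffer cell and sinusoidal endothelium markers overlap, and the stellate cell and fibroblast sums are 279 to 357 CPM in Fbp1-deleted against 208 to 307 CPM in WT livers.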

How the data were processed

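Total RNA of frozen liver was made into mRNA libraries that do not keep the strand, per the labels' protocols. The values deposited by the authors are estimated counts for each gene in each liver. CASAVA, Salmon and GRCm38 are named in the submitters' processing notes, and the series' design text also describes STAR, featureCounts and DESeq2 in R 3.3.3. Whether the deposited estimated counts were adjusted for transcript length is not given in the sources used here. All values were whole. Symbols came from GENCODE M21 (53355 of 53392 identifiers matched). Reads of overlapping genes on opposite strands cannot be told apart. Besides the cases given above, such overlaps touch exons of Icam1, Il34, Cd9 and Folr2, among others.

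Genes were filtered with filterByExpr, scaled by TMM and tested with edgeR 4.0.16 in R 4.3.3 (robust quasi-likelihood F test with genotype as the single term, Benjamini-Hochberg adjusted p under 0.05). The SE was taken from the change and its F statistic, and 95% intervals use 8 degrees of freedom. Replicates were checked for duplicates (smallest chi-square per degree of freedom 16.2), and the fit was tested on simulated data. Where nothing says that samples are separate animals, p-values measure only the spread between these samples, which may be technical. Shared words were counted in Python 3.11.15.

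The genes, lists and motifs were chosen with earlier results of these data known. Named beside the 10 genes were their receptors, Il34, Fbp1 and, in each list, up to 4 genes called with the smallest adjusted p and those called against the majority. Cxcl2, Cxcl3, Cxcl5, Cxcr5, Ccl21a, Ackr4, Ciita, Ifng, Nfkb1, Rela, Nfkbia, Clec4f, Bst2, Art3 and Zmynd15 stand outside this rule, chosen after their values were seen. The same holds for the cholangiocyte markers Spp1, Krt7, Krt19, Sox9 and Epcam. Some items that the rule would name are not reported here. Alternatives were RLE, upper quartile and no scaling factors, no filter, CPM above 1 in 5 livers, DESeq2 1.42.0, limma-voom (limma 3.58.1), no robust shrinkage, 1 surrogate variable (sva 3.50.0), removal of genes above 1% of counts, and each liver left out.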

Additional observations from a re-analysis of the deposited data

Results flagged for a closer look

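In 100 groups of 5 livers (50 named genes in both genotypes), 5 had 1 liver apart from the rest, where chance alone would set apart about 1 in 20 groups. A liver was set apart when its gap to the nearest other liver was over 0.71 of the range of its group. Among the 10 genes this held for Ccl9, where Fbp1-deleted replicate 8 had 35.8 CPM and the next highest Fbp1-deleted liver 21.2 CPM, and for Cxcl1, where WT replicate 4 had 102 CPM and the next highest WT liver 34.7 CPM. Beyond the 10 genes it held for Il34 in WT replicate 3 (6.23 CPM, next 3.69 CPM), for Cd9 in WT replicate 4 (20.8 CPM, next 11.1 CPM) and for Ighm in WT replicate 5 (38.1 CPM, next 11.7 CPM).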

How the results depend on the processing

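Over 10 other settings and 10 fits that left out a liver, 7 of the 10 genes were called lower, or 6 where Cxcl1 lost its call, and 0 were called higher. The Cxcl1 change was -2.86 without the filter and -2.48 with limma-voom, neither past the threshold, and -3.28 to -1.99 with a liver left out. With a liver left out, the changes were -1.80 to -1.35 for Ccl5, -1.79 to -1.44 for Ccl9, -1.75 to -1.32 for Cxcl10, -1.11 to -0.85 for Cxcl9, -1.04 to -0.75 for Csf1 and -0.61 to -0.51 for Cxcl12. Genes called over the whole table with a liver left out numbered 1066 to 2060 higher and 1019 to 1858 lower, against 1636 and 1542. The lowest values came without Fbp1-deleted replicate 6 (1086 higher, 1019 lower) and replicate 9 (1066 higher). Of the ligands outside the 10 genes, 2 were called higher without the filter (Ppbp and Cxcl5) and 0 with the stricter filter or without genes above 1% of counts, where Ppbp was not tested. With a liver left out, 1 was higher and 2 to 3 lower, the third being Ccl21a. Of the receptors, 1 (Cxcr5) was called lower without the filter. Without Fbp1-deleted replicate 8, 2 were called higher (Ackr2 and Ackr4), against 1 without any other liver, and 0 were lower. The uncalled changes turned sign for Cxcr2 with upper quartile scaling (-0.035), library totals (-0.057) and limma-voom (-0.14) and for Cxcr4 with upper quartile scaling (-0.0017) and library totals (-0.020). With a liver left out they ranged from -0.16 to 0.29 for Cxcr2, -0.18 to 0.29 for Cxcr4, -0.26 to 0.042 for Ackr1 and -0.0081 to 0.37 for Il34. The causes were not tested. Library totals shifted all changes by -0.09 and upper quartile scaling by -0.07. Depth limits Ccl2, Ccr1 and Ackr3. No paired analysis was possible because the replicate numbers of the groups do not overlap.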
